A study of Mus musculus with 20 samples.

Results

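The genes described here are 10 genes of the inflammatory cytokine response, taken by symbol from the 54532 genes of a mouse spleen count table. They are the cytokines Tnf, Il1a, Il1b, Il6, Il12b, Il18 and Ifng, the chemokines Ccl3 and Ccl4, and Nlrp3, the sensor that starts the release of mature IL-1β and IL-18. All 10 had a row in the table. Whole spleens were taken at 4 weeks of age from control mice or from mice bred without gluten in the diet, and their total RNA was sequenced. The labels give each library an ID that is a plain number or a number after the letter S. Of the 11 control libraries 8 had plain IDs (1 to 8) and 3 had S IDs (S1, S2 and S6). Of the 9 gluten-free libraries 4 had plain IDs (7 to 10) and 5 had S IDs (S1, S3, S5, S6, S8). No label names a strain or genotype, explains the letter S or says that each ID is a separate mouse. The p-values below therefore measure the spread between these libraries, which may be technical in part. The ID form was kept as a term or as a split in the main comparisons of diet and ID form. The permutation tests, the ranking of correlated genes and the order of member levels pooled all libraries.

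Inflammatory cytokines are small secreted proteins that are made at low levels at rest and are induced within hours when receptors of innate immunity sense microbes or tissue damage. TNF and the IL-1 proteins act on receptors that lead to NF-kB, a transcription factor that in turn induces more cytokine and chemokine genes. In the spleen, which filters blood and houses lymphocytes, their known sources are macrophages, monocytes, neutrophils and dendritic cells, with T cells and NK cells as further sources of TNF and the main source of interferon gamma. IL-12 drives T cells and NK cells to make interferon gamma, CCL3 and CCL4 draw leukocytes to sites of inflammation, and IL-6 acts on lymphocytes and on the liver. IL-1β and IL-18 are made as inactive precursors that caspase-1 cuts once an inflammasome such as that of NLRP3 has formed.

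Expression is given as CPM, counts relative to the library total after that total was adjusted with the TMM factors of edgeR. Differences are log2 fold changes with their standard errors from edgeR's quasi-likelihood test, with Benjamini-Hochberg adjustment over the 16628 genes that passed an expression filter. Called genes are those whose adjusted p was under 0.05. Diet differences are gluten-free minus control, and ID form differences are S minus plain. The comparisons share libraries, so they are not independent of each other.

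Of the 4 members with a called difference described below, 3 were the cytokine genes Tnf, Il1a and Il1b, whose start regions are shown because each holds the same core promoter letters at nearly the same place. The windows run from 250 bases before to 50 bases after the RefSeq transcript start on GRCm38.p6 and are printed 5′ to 3′ on the gene's strand. Their positions, all on the minus strand, are chr17:35201958-35202257 for Tnf, chr2:129309923-129310222 for Il1a and chr2:129371090-129371389 for Il1b. Capitals mark the letters TATAAA, a form of the TATA box at which the transcription machinery assembles.
Tnf: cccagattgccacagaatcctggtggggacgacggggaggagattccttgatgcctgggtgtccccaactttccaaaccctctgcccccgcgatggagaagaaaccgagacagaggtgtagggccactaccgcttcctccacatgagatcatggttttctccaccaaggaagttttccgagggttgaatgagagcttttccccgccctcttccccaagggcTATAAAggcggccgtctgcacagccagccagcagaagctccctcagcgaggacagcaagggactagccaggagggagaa
Il1a: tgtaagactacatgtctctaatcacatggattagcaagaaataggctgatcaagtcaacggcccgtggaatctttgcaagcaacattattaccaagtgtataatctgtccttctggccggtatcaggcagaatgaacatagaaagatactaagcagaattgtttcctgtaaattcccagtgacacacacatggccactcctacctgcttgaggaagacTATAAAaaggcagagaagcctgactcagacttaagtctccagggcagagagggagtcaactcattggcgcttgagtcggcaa
Il1b: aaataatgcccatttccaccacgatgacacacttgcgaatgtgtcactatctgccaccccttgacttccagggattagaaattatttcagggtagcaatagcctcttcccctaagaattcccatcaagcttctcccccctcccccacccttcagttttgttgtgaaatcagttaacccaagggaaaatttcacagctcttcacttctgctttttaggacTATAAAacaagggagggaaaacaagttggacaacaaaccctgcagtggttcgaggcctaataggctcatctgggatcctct

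The capitals begin 29 bases before the start in Tnf, 32 in Il1a and 31 in Il1b. Among the 9 members with a promoter in the RefSeq table (all but Ccl4), TATAAA stood on the gene's own strand in 4, the fourth being Ifng at 30 bases before its start. It stood on the other strand in Il18, 175 bases before the start, so that 5 of 9 members held it on either strand. Of all 32851 promoter windows of this length, 13.6% held TATAAA on either strand and 8.32% on the gene's strand. The letters TGANTCA, a form of the AP-1 site that reads the same on both strands, occurred in 2 of 9, Il1a and Il6, against 7.81%. These are matches of letters within the windows and not measured binding sites.

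Depth separated the members into those that could be compared and those that could not. Library totals ran from 13626021 to 24268237 counts. Il6, Il12b and Ifng did not pass the expression filter, with medians of 3, 4 and 8 counts per library, and are too low to judge here. The other 7 passed. Ccl3 and Ccl4 passed narrowly, with medians of 13 and 14 counts, and reached at least 10 counts in 13 and 16 of the 20 libraries. Ccl3 did so in 5 of 11 control and 8 of 9 gluten-free libraries, and Ccl4 in 8 of 11 and 8 of 9. These tallies are not scaled for depth. Totals were 13626021 to 19719591 counts in control and 16134584 to 24268237 in gluten-free libraries. After scaling, Ccl3 averaged 0.662 CPM in control and 0.688 CPM in gluten-free libraries. The medians of the others were 64.5 counts for Nlrp3, 123.5 for Il1a, 124.5 for Tnf, 158.5 for Il1b and 294 for Il18.

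On a scale that divides CPM by gene length in kilobases, Il18 had the highest level of the 10, 15.4 ± 1.75 CPM per kb (SD, n = 20). It stood above the next member by more than the spread of either. Tnf, at 4.92 ± 2.01, Il1b, at 4.79 ± 1.11, and Il1a, at 3.91 ± 1.73 CPM per kb, followed and did not differ from each other beyond their spread over the pooled libraries. Within the control plain libraries Il1b, at 5.30 ± 0.943, stood above Il1a, at 2.76 ± 0.578 CPM per kb (SD, n = 8), by more than their spread. The means of Tnf and Il1b were 3.97 ± 1.41 and 5.17 ± 1.11 CPM per kb in control libraries (SD, n = 11). In gluten-free libraries they were 6.08 ± 2.09 and 4.34 ± 0.979 CPM per kb (SD, n = 9). Their order turned between the diets, but over both ID forms the means in each diet lay within their spread. With plain IDs Tnf and Il1b averaged 3.74 ± 0.890 and 5.30 ± 0.943 CPM per kb in control libraries (SD, n = 8). The gluten-free plain means were 6.95 ± 1.89 and 5.149 ± 0.1865 CPM per kb (SD, n = 4). The control S means were 4.56 ± 2.54 and 4.82 ± 1.67 CPM per kb (SD, n = 3). The gluten-free S means were 5.376 ± 2.165 and 3.69 ± 0.843 CPM per kb (SD, n = 5). These means do not use that both genes were measured in the same libraries. Ccl4, at 1.29 ± 0.521, Nlrp3, at 0.987 ± 0.330, and Ccl3, at 0.880 ± 0.341 CPM per kb, formed a lower range in which the neighbours again lay within their spread. Ifng, at 0.352 ± 0.223, Il12b, at 0.130 ± 0.0916, and Il6, at 0.0879 ± 0.0760 CPM per kb, were lowest. This order describes RNA in whole spleen, where fewer cells of a type and less RNA per cell cannot be told apart.

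**Figure D1:**
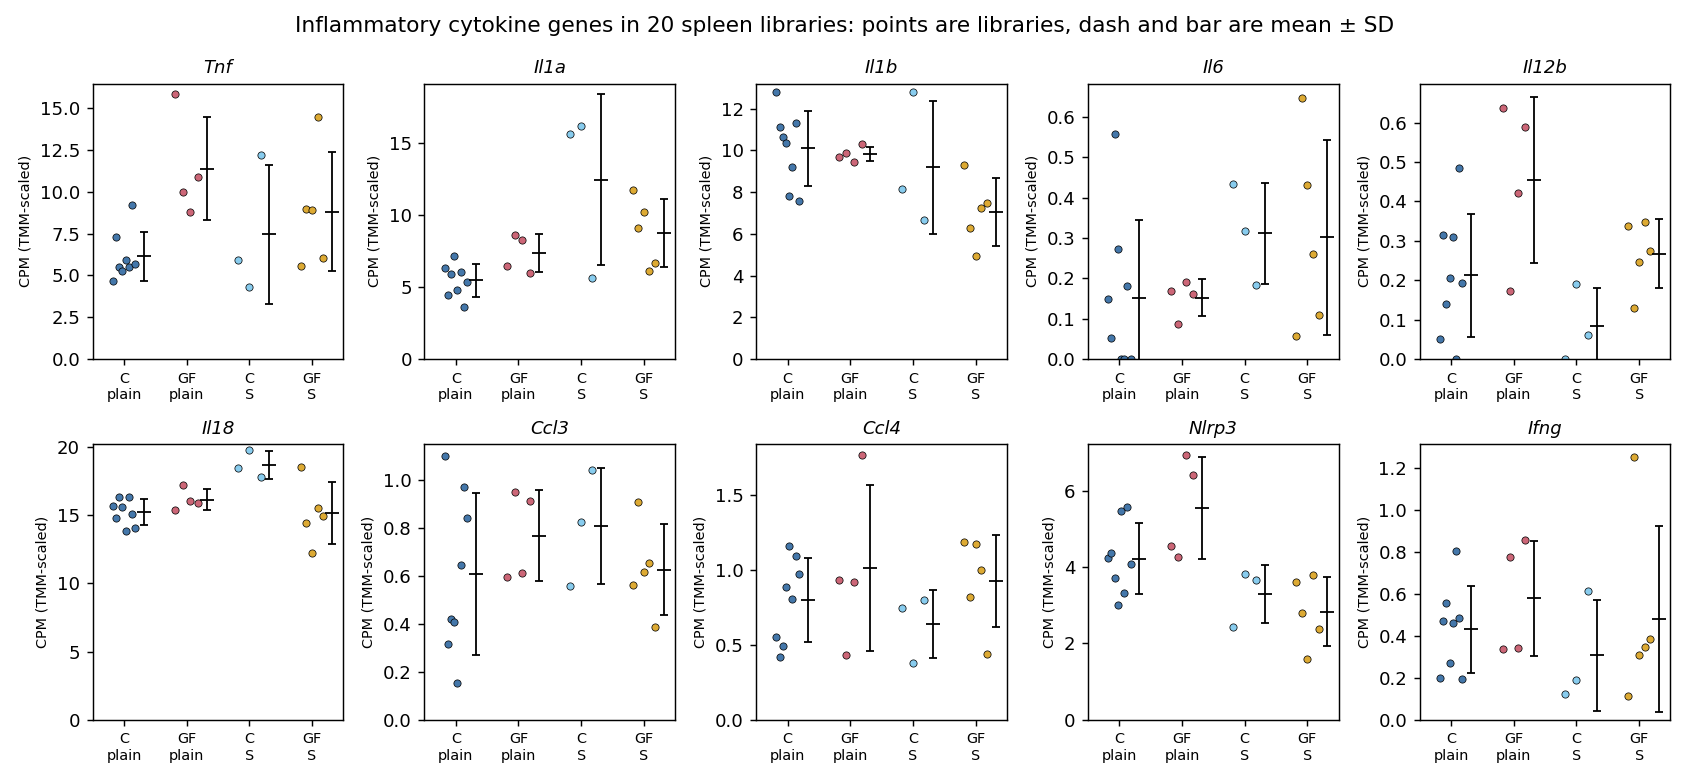
Expression of the 10 inflammatory genes in each of the 20 libraries, in TMM-scaled CPM, by diet and ID form. Each point is 1 library, the dash is the group mean and the bar its SD. By group mean, Tnf is highest in the gluten-free plain IDs (8.78 to 15.9 CPM) and Nlrp3 lowest in the gluten-free S IDs (1.60 to 3.79 CPM). Both ranges overlap those of other groups. Il1a is highest in 2 of the 3 control S libraries (15.6 and 16.1 CPM).

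Tnf was higher in the gluten-free than in the control libraries with plain IDs. The gene (ENSMUSG00000024401, GRCm38 chromosome 17, 35199381 to 35202007, minus strand) encodes tumour necrosis factor. In the 8 control libraries with plain IDs it ran from 4.65 through a median of 5.61 to 9.22 CPM. In the 4 gluten-free libraries with plain IDs it stood at 15.9 (ID 7), 10.0 (ID 8), 8.78 (ID 9) and 10.9 CPM (ID 10). Of the 4 gluten-free libraries 3 lay above every control library, and ID 9 lay below control 8 alone. The means were 6.14 ± 1.46 (SD, n = 8) and 11.4 ± 3.10 CPM (SD, n = 4), and the log2 fold change was 0.89 ± 0.19, a 1.85-fold difference (edgeR adjusted p = 0.00123). The call held in each of the 12 fits that left out 1 of these libraries, with log2 fold changes from 0.71 to 1.03.

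Among the S IDs the Tnf values overlapped. The control libraries stood at 5.90 (S1), 4.32 (S2) and 12.2 CPM (S6), and the gluten-free libraries at 5.58 (S1), 9.00 (S3), 8.94 (S5), 14.5 (S6) and 6.06 CPM (S8). In each diet the library with the ID S6 was the highest of its group. The log2 fold change was 0.24 ± 0.38 (edgeR adjusted p = 0.981), and it ran from -0.03 to 0.80 as each library was left out in turn. The diet difference did not pass the test for differing between the ID forms (interaction -0.65 ± 0.41, edgeR adjusted p = 0.246). Over both ID forms the mean of Tnf was 6.50 ± 2.31 for control (SD, n = 11) against 9.96 ± 3.43 CPM for gluten-free libraries (SD, n = 9). The difference was 0.63 ± 0.21 on the log2 scale, with an edgeR adjusted p of 0.0908. That value passed the threshold without control S6 (0.88, adjusted p = 0.00665), without gluten-free S8 (0.68, adjusted p = 0.0270), with DESeq2 (0.62, adjusted p = 0.0445) and with limma-voom quality weights (0.76, adjusted p = 0.000531). Between the ID forms Tnf did not pass the test in control (0.28 ± 0.27, edgeR adjusted p = 0.693) or gluten-free libraries (-0.36 ± 0.27, adjusted p = 0.305), and the latter was called without gluten-free S6 (-0.66, adjusted p = 0.0326).

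The called genes among all tested genes set the background for these counts. With plain IDs, 43.8% of all tested genes were called between the diets, 19.8% as higher and 24% as lower in gluten-free libraries, and 1 of the 7 tested members, Tnf, was called higher. Over both ID forms edgeR called 0% of all genes and 0 of 7 members, with 4411 genes and 1 member at an unadjusted p under 0.05. DESeq2 called 1614 genes and 1 member there, limma-voom 1 gene and 0 members, and limma-voom with quality weights 9527 genes and 2 members, Tnf and Nlrp3 (0.45, adjusted p = 0.0239). Without control S6 edgeR called 3888 genes and 1 member. Within the S IDs edgeR again called 0% and 0 of 7 members, with 872 genes and 0 members at an unadjusted p under 0.05, and DESeq2 called 4 genes and 0 members and limma-voom with quality weights 667 genes and 0 members. The interaction of diet and ID form was called in 27.6% of all genes and in 0 of 7 members, of which 2, Il1a and Il18, had an unadjusted p under 0.05. Of the 7 members, 6 had a positive diet difference with plain IDs and 2 with S IDs. The median log2 fold change of the 7 was 0.34 with plain IDs, against 0.03 over all tested genes, and -0.30 with S IDs, against 0.02.

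**Figure D2:**
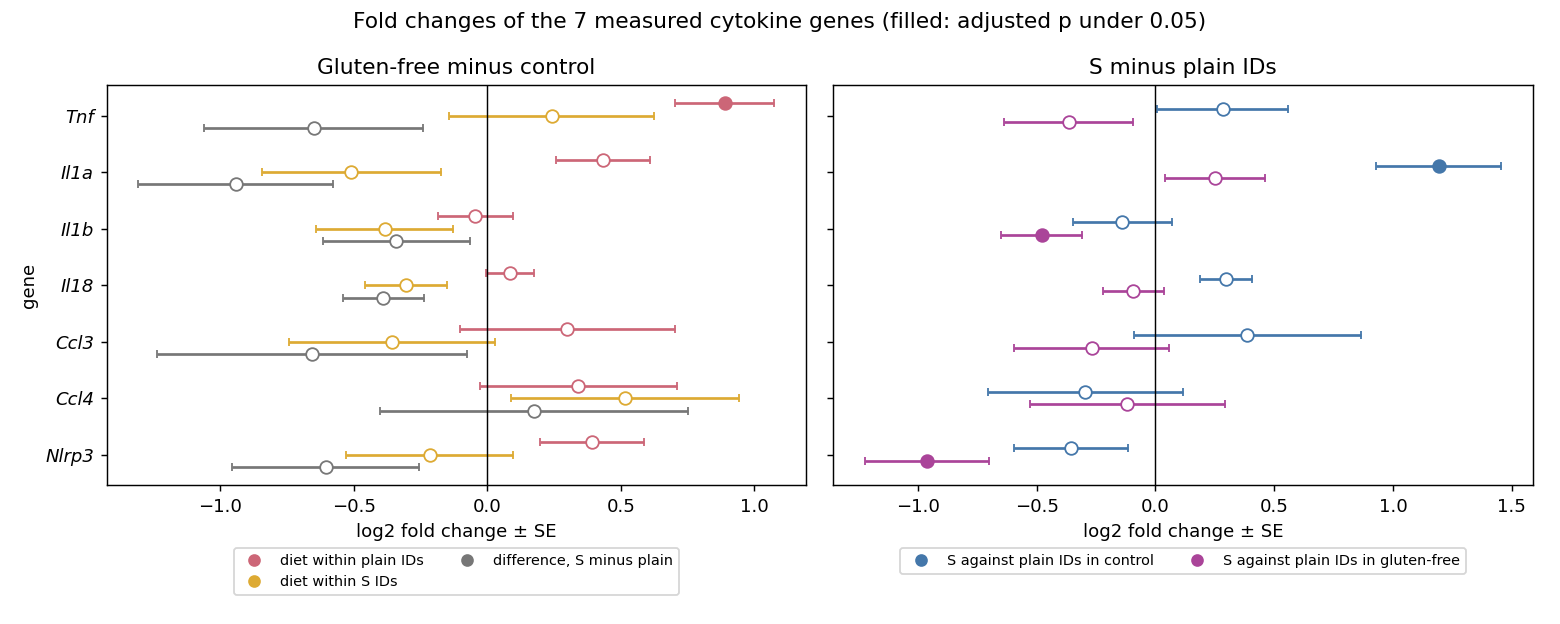
Log2 fold changes of the 7 members that passed the expression filter, with standard errors, in each comparison. Filled points are called at an adjusted p under 0.05; these are Tnf for diet with plain IDs, Il1a for S against plain IDs in control, and Il1b and Nlrp3 for S against plain IDs in gluten-free libraries.

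Il1a differed between the ID forms of the control libraries. It encodes IL-1α, an alarm cytokine that is active without cutting by caspase-1 (ENSMUSG00000027399, chromosome 2, 129299610 to 129309972, minus strand). The 8 control libraries with plain IDs ran from 3.58 through a median of 5.62 to 7.16 CPM, while the S libraries stood at 15.6 (S1), 16.1 (S2) and 5.64 CPM (S6). S1 and S2 lay above every plain library and S6 within them. The log2 fold change was 1.19 ± 0.26, a 2.29-fold difference (edgeR adjusted p = 0.0291), in a comparison that called 2.39% of all genes, 1.78% as higher, and 1 of 7 members. The call was lost without S1 (1.00, adjusted p = 0.227), without S2 (0.96, adjusted p = 0.247), without control 2, 6 or 7 (adjusted p of 0.0521, 0.0528 and 0.0521) and with limma-voom (1.07, adjusted p = 0.0742). Without S6 it was 1.54 (adjusted p = 0.000276).

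The summed level of 5 platelet markers was highest in control S1 and S2, the control libraries with the most Il1a. That sum was 3252 CPM in control S1 and 3284 in control S2, against 1080 in control S6 and 497.7 to 1311 CPM in the 8 control libraries with plain IDs. Among those 8 the highest platelet sum, 1311 CPM in control 5, came with 5.37 CPM of Il1a. The highest Il1a among them, 7.16 CPM in control 4, came with a platelet sum of 810.9 CPM. All 5 platelet markers were called higher in the S IDs of that comparison, where 1.78% of all tested genes were. The pattern was not particular to platelets. Neutrophil sums of 2926 in S1 and 3179 CPM in S2 also lay above every control plain library, with S6 within them at 1528 CPM. The basophil and mast cell sum and the mesothelium sum did the same, although 0 markers of these lists were called there. The part of any of these cell types in the Il1a result was not tested.

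By diet, Il1a did not pass the threshold. The gluten-free libraries with plain IDs stood at 6.46 (ID 7), 8.63 (ID 8), 8.29 (ID 9) and 6.00 CPM (ID 10), and overlapped the upper part of the control range. Its log2 fold change was 0.43 ± 0.18 (edgeR adjusted p = 0.0572), and it was called with DESeq2 (0.43, adjusted p = 0.0430), with limma-voom (0.46, adjusted p = 0.0357) and its quality weights (0.47, adjusted p = 0.00948), with upper quartile scaling (0.54, adjusted p = 0.0222), with library totals alone (0.71, adjusted p = 0.00271) and without control 1, control 4, control 8 or gluten-free 10 (adjusted p from 0.0329 to 0.0477). Among the S IDs the gluten-free libraries stood at 11.7 (S1), 9.08 (S3), 10.2 (S5), 6.14 (S6) and 6.66 CPM (S8), between the extremes of the 3 control libraries. The log2 fold change there was -0.51 ± 0.33 (edgeR adjusted p = 0.923). The interaction was -0.94 ± 0.36 (edgeR adjusted p = 0.0580) and was called with DESeq2 (-0.93, adjusted p = 0.0441), with upper quartile scaling (-1.06, adjusted p = 0.0375), with library totals alone (-1.18, adjusted p = 0.0146) and with limma-voom quality weights (-1.17, adjusted p = 0.000640). It was also called without control S6 (-1.32, adjusted p = 0.00623), without gluten-free S1 (-1.07, adjusted p = 0.0345) and without control 1, control 4 or gluten-free 10 (adjusted p from 0.0476 to 0.0497).

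Il1b, the gene of IL-1β, differed little between the diets with plain IDs (ENSMUSG00000027398, chromosome 2, 129364570 to 129371139, minus strand). Control libraries ran from 7.57 through a median of 10.5 to 12.8 CPM, and the gluten-free libraries stood close together at 9.69 (ID 7), 9.88 (ID 8), 9.43 (ID 9) and 10.3 CPM (ID 10). Its log2 fold change was -0.05 ± 0.14 (edgeR adjusted p = 0.814), and its sign changed with the scaling: it was 0.06 with upper quartile scaling and 0.22 with library totals alone. With S IDs the control libraries stood at 8.14 (S1), 12.8 (S2) and 6.68 CPM (S6). The gluten-free libraries there stood at 9.29 (S1), 6.27 (S3), 4.93 (S5), 7.22 (S6) and 7.49 CPM (S8), and the log2 fold change was -0.38 ± 0.26 (edgeR adjusted p = 0.925).

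Within the gluten-free libraries Il1b was lower with S than with plain IDs. All 5 S libraries lay below the 4 plain libraries, with means of 7.04 ± 1.61 (SD, n = 5) and 9.82 ± 0.356 CPM (SD, n = 4). This was a log2 fold change of -0.48 ± 0.17, or 0.718-fold (edgeR adjusted p = 0.0479). This comparison called 34.6% of all tested genes, 13.5% as lower, and 2 of the 7 members, both lower. The Il1b call rested on a narrow margin: it was lost without gluten-free 7, 8, 9, 10, S3, S5 or S8 in turn (adjusted p from 0.0595 to 0.102), with RLE scaling (0.0567) and in 1 fit of all 4 groups (0.0561). Over both ID forms the diet difference of Il1b was -0.18 ± 0.14 (edgeR adjusted p = 0.395).

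Nlrp3 was the other member called between the ID forms of the gluten-free libraries. The gene (ENSMUSG00000032691, chromosome 11, 59541568 to 59566956) encodes the sensor of the NLRP3 inflammasome. The gluten-free plain libraries stood at 4.55 (ID 7), 4.27 (ID 8), 6.95 (ID 9) and 6.42 CPM (ID 10). The gluten-free S libraries stood at 3.60 (S1), 2.81 (S3), 1.60 (S5), 3.79 (S6) and 2.37 CPM (S8), all below the plain ones. The difference was -0.96 ± 0.26, or 0.514-fold (edgeR adjusted p = 0.0156). It was lost without gluten-free 9 alone of the 9 libraries (-0.86, adjusted p = 0.0559).

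The diet difference of Nlrp3 was not called in either ID form. The 8 control plain libraries ran from 3.00 through a median of 4.16 to 5.58 CPM, within which 2 of the 4 gluten-free plain libraries lay, and the log2 fold change was 0.39 ± 0.20 (edgeR adjusted p = 0.114). That value was called without control 8 (0.49, adjusted p = 0.0414), with upper quartile scaling (0.49, adjusted p = 0.0493), with library totals alone (0.65, adjusted p = 0.0219) and with limma-voom quality weights (0.55, adjusted p = 0.0166). With S IDs the control libraries stood at 2.42 (S1), 3.81 (S2) and 3.68 CPM (S6), and the log2 fold change was -0.21 ± 0.31 (edgeR adjusted p = 0.981). Between the ID forms of the control libraries it was -0.35 ± 0.24 (edgeR adjusted p = 0.522), and -0.64 with limma-voom quality weights (adjusted p = 0.0171).

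Part of the monocyte and most of the neutrophil markers were also called lower in the gluten-free S IDs than in the gluten-free plain IDs, where 13.5% of all tested genes were called lower. The summed CPM of 10 monocyte and macrophage markers was 572.6 to 696 with plain and 340.7 to 654.3 with S IDs, and 5 of the 10 were called lower and 0 higher. The sum of 10 neutrophil markers was 2851 to 7407 with plain and 614.4 to 3286 CPM with S IDs, and 8 of the 10 were called lower and 0 higher. Of the dendritic cell markers 3 of 6 were called lower and 0 higher. Erythroid markers went the other way, with 8 of 10 called higher, 0 lower and a median log2 fold change of 1.30, where 21.1% of all tested genes were called higher. None of these markers was at 0 in any group, and their part in the Il1b and Nlrp3 values was not tested.

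Il18 had the smallest spread relative to its mean of the 7 tested members. With all libraries, TMM scaling and the default filter, edgeR did not call it in any comparison. It encodes a precursor that is present at rest in macrophages and epithelia and, after cutting, drives interferon gamma production (ENSMUSG00000039217, chromosome 9, 50554827 to 50581840). The control plain libraries ran from 13.8 through 15.4 to 16.4 CPM, and the gluten-free plain libraries stood at 15.4 (ID 7), 17.3 (ID 8), 16.0 (ID 9) and 15.9 CPM (ID 10). The ranges overlapped, and the log2 fold change was 0.09 ± 0.09 (edgeR adjusted p = 0.454). With library totals alone it was called, at 0.36 (edgeR adjusted p = 0.00792). With S IDs the control libraries stood at 18.5 (S1), 19.8 (S2) and 17.8 CPM (S6), above all 8 control plain libraries, and the ID form difference of 0.30 ± 0.11 did not pass the threshold (edgeR adjusted p = 0.183), but did with limma-voom quality weights (0.28, adjusted p = 0.0149). The gluten-free S libraries stood at 18.5 (S1), 14.5 (S3), 12.2 (S5), 15.5 (S6) and 15.0 CPM (S8), of which 4 of 5 lay below every control S library. That diet difference was -0.30 ± 0.15 (edgeR adjusted p = 0.893). The interaction was -0.39 ± 0.15 (edgeR adjusted p = 0.0595), and DESeq2 (-0.37, adjusted p = 0.0448), limma-voom (-0.40, adjusted p = 0.0456) and a filter at a mean of 1 CPM (-0.39, adjusted p = 0.0469) called it. So did upper quartile scaling (-0.50, adjusted p = 0.0205), library totals alone (-0.65, adjusted p = 0.0139), limma-voom quality weights (-0.40, adjusted p = 0.00829) and edgeR without control 8, gluten-free S1 or gluten-free S6 (adjusted p of 0.0463, 0.0178 and 0.0428).

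The chemokine genes Ccl3 and Ccl4, which lie near each other on chromosome 11 (83647844 to 83649355, minus strand, and 83662584 to 83664683, plus strand), gave no call in any comparison. Ccl3 (ENSMUSG00000000982) ran from 0.154 to 1.10 CPM in control plain, 0.595 to 0.949 in gluten-free plain, 0.559 to 1.04 in control S and 0.385 to 0.908 CPM in gluten-free S libraries. Its diet difference was 0.30 ± 0.40 with plain IDs (edgeR adjusted p = 0.562) and -0.36 ± 0.38 with S IDs (adjusted p = 0.969). Ccl4 (ENSMUSG00000018930) ran from 0.420 to 1.16, from 0.431 to 1.77, from 0.381 to 0.796 and from 0.441 to 1.18 CPM in the same 4 groups. Its diet difference was 0.34 ± 0.37 with plain IDs (edgeR adjusted p = 0.469) and 0.52 ± 0.43 with S IDs (adjusted p = 0.947), and 4 of the 5 gluten-free S libraries lay above the 3 control S libraries.

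The 3 members under the filter had few counts in every group. Ifng, the gene of interferon gamma (ENSMUSG00000055170, chromosome 10, 118441046 to 118445892), had 2 to 29 counts per library. Its highest value, 1.25 CPM in gluten-free S3, stood apart from the other 4 gluten-free S libraries at 0.113 to 0.385 CPM. Il12b, which encodes the p40 chain shared by IL-12 and IL-23 (ENSMUSG00000004296, chromosome 11, 44400063 to 44414033), had 0 to 8 counts in the control and 3 to 15 counts in the gluten-free libraries. Scaled for depth, it ran from 0 to 0.4855 and from 0.1297 to 0.6376 CPM. With plain IDs it stood at 15 (ID 7), 4 (ID 8), 11 (ID 9) and 11 counts (ID 10) in gluten-free libraries. Without the filter, its difference over both ID forms was 1.23 ± 0.49, with an unadjusted p of 0.0186 that did not pass adjustment (edgeR adjusted p = 0.200). Il6 (ENSMUSG00000025746, chromosome 5, 30013114 to 30019981) had 0 to 15 counts and its difference over both ID forms was -0.01 ± 0.59 (edgeR without the filter, adjusted p = 0.996). A count of 0 occurred for Il6 in control 5, 6 and 7, which allows up to 0.194, 0.232 and 0.242 CPM, and for Il12b in control 7 and control S1, which allows up to 0.242 and 0.186 CPM. These limits take 3 counts as the floor and cover counting error only.

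The genes whose log2 CPM followed each member most closely over the 20 libraries differed from member to member. For Tnf they were Zc3h12d (Pearson r = 0.937), Irf4 (0.930), a transcription factor of lymphocytes, and Cd4 (0.924), the coreceptor of helper T cells. With each library centred on its group mean these values were 0.919, 0.910 and 0.915. For Il1a they were Gp9 (0.929) and P2ry1 (0.927), a chain of the platelet von Willebrand factor receptor and a platelet receptor for ADP, and Stx11 (0.927), with 0.879, 0.868 and 0.856 after centring. For Il1b they were Adap2 (0.869), Lrch3 (0.859) and Tlr4 (0.856), the receptor for bacterial lipopolysaccharide. For Nlrp3 they were Snrk (0.891), Ccr2 (0.858), a chemokine receptor of classical monocytes, and Nfam1 (0.853). For Il18 they were Gucy1a1 (0.866), Zfp521 (0.856) and Srpx (0.827). For Ccl3 and Ccl4 the closest genes were Kif5a (0.826) and Arrdc4 (0.765), at few counts of the members themselves. These are the highest of 1 value per protein-coding tested gene, and all points share the libraries, their depth and their cell makeup.

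T cell markers were higher in the gluten-free plain IDs, as Tnf was. The summed CPM of 7 T cell markers was 233.6 to 411.5 in control plain and 455.1 to 523.3 in gluten-free plain libraries, with 7 of 7 called higher. Of all tested genes 19.8% were called higher there. With S IDs 0 of the 7 were called between the diets, with a median log2 fold change of 0.28. Among the control S libraries the sum was 247.4 in S1, 225.5 in S2 and 596.1 CPM in S6, the library with the highest Tnf of its group. The summed CPM of 5 B cell markers was 1109 to 2175 in control plain and 1639 to 2244 in gluten-free plain libraries. Of these markers 1 of 5 was called higher, near the share of all tested genes. It was 5 of 5 with upper quartile scaling or library totals alone, which called 4605 and 6436 of the 16628 tested genes higher. In each of the 4 groups the library with the most Tnf had the highest B cell sum: 2175 CPM in control 8, 2244 in gluten-free 7, 2155 in control S6 and 2367 in gluten-free S6. This was not particular to B cells. The same 4 libraries had the highest T cell and dendritic cell sums and the lowest erythroid and platelet sums of their groups. None of these markers was at 0 in any group, and the part of any of these cell types in the Tnf values was not tested.

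**Figure D3:**
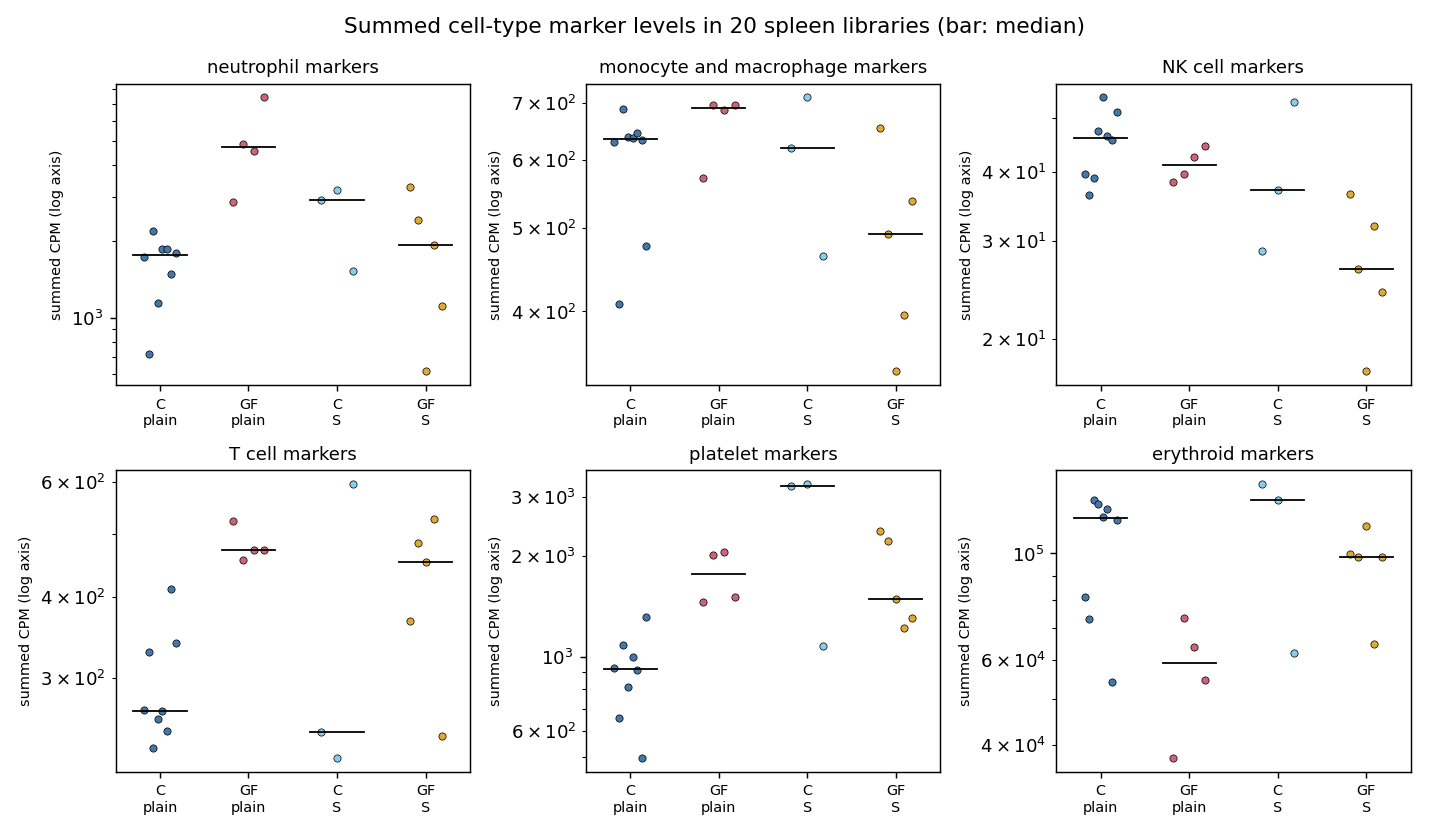
Summed TMM-scaled CPM of fixed cell type marker lists in each of the 20 libraries, by diet and ID form. The neutrophil sum is 717.4 to 2207 CPM in control plain and 2851 to 7407 CPM in gluten-free plain libraries, and the platelet sum is highest in control S1 and S2, at 3252 and 3284 CPM.

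Of the 21 pairs of the 7 tested members, none had a correlation over the 20 libraries that passed adjustment over the pairs in a two-sided permutation test. The closest were Il1b and Nlrp3, with Pearson r = 0.571 (permutation p = 0.00849, adjusted 0.178) and Spearman rho = 0.517 (permutation p = 0.0203, adjusted 0.321). Their r was 0.283 without the 2 libraries farthest from the median Il1b level, -0.069 over the 12 plain libraries and 0.641 over the 8 S libraries, so it did not hold within the plain IDs. Il1b and Il18 had r = 0.491 (permutation p = 0.0280, adjusted 0.214) and rho = 0.344 (permutation p = 0.137, adjusted 0.410). Without the 2 farthest libraries r was 0.179, and it was 0.455 over the plain and 0.857 over the S libraries. Tnf and Il1a had r = -0.257 (permutation p = 0.273, adjusted 0.520) and rho = -0.209 (permutation p = 0.374, adjusted 0.618). Without the 2 farthest libraries it was -0.246, and it was 0.108 over the plain and -0.780 over the S libraries. With each library centred on the mean of its diet and ID form, r was -0.782, and in the same way it was 0.745 for Il1b and Il18 and 0.328 for Il1b and Nlrp3. The centred values are given as a description, and the permutations did not keep the 4 groups apart.

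**Figure D4:**
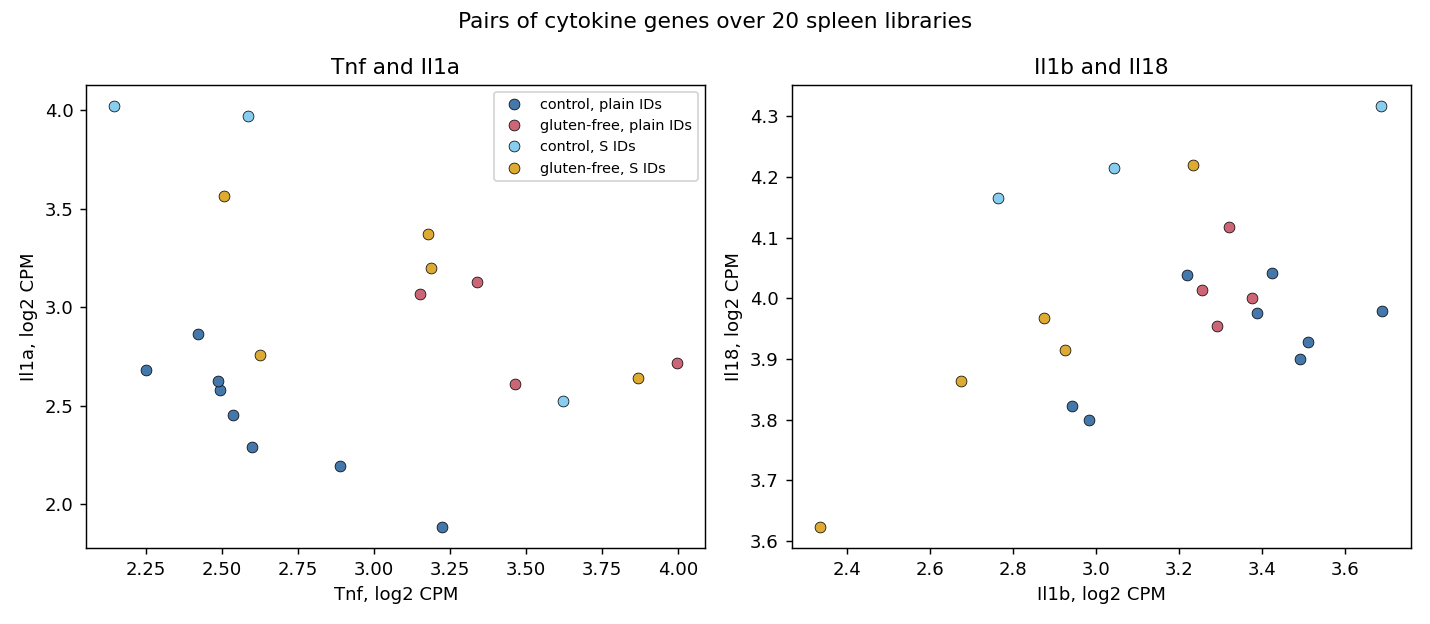
Log2 CPM of pairs of members, 1 point per library, with the 4 groups marked. The left panel shows Tnf against Il1a, with r = -0.780 over the 8 S libraries and r = 0.108 over the 12 plain libraries of both diets, and the right panel shows Il1b against Il18.

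The receptors and decoys through which the members act were mostly higher in the gluten-free libraries with plain IDs. Of 17 such genes, all tested, 10 were called higher and 0 lower with plain IDs, with a median log2 fold change of 0.38. In that comparison 19.8% of all tested genes were called higher. Il6ra, the IL-6 receptor, averaged 46.1 in control and 70.2 CPM in gluten-free libraries (0.61 ± 0.10, edgeR adjusted p = 0.000144). Ccr1, a receptor for CCL3, averaged 6.17 and 11.7 CPM (0.92 ± 0.16, adjusted p = 0.000324). Il1rn, which encodes the antagonist that blocks the IL-1 receptor, averaged 3.57 and 6.50 CPM (0.87 ± 0.18, adjusted p = 0.00112). The control and gluten-free ranges of these 3 genes did not overlap. They were named for their small p in this same comparison, which favours ranges that lie apart, so nothing is read from that. With S IDs none of the 17 was called, and the median was -0.02. The interaction was called in 4 of 17, each lower, near the 27.6% of all tested genes called there (10.8% as lower). In gluten-free libraries 9 of 17 were lower with S than with plain IDs and 1 was higher, where 13.5% of all tested genes were called lower and 21.1% higher.

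The inflammasome and processing genes were called higher with plain IDs in 8 of 13, with 0 lower and a median of 0.50. Among all tested genes 19.8% were called higher there. Gsdmd, whose cut product forms the pore through which IL-1β leaves the cell, averaged 55.8 and 85.3 CPM (0.61 ± 0.12, edgeR adjusted p = 0.000583). Pycard, the adaptor between NLRP3 and caspase-1, averaged 30.1 and 40.2 CPM (0.42, adjusted p = 0.00130). Zfp36, which encodes a protein that promotes decay of Tnf mRNA, averaged 58.0 and 85.0 CPM (0.55 ± 0.10, adjusted p = 0.000302). Of the 13 genes none was called with S IDs, where the median was 0.05, and 4 were lower with S than with plain IDs in gluten-free libraries. In that last comparison 13.5% of all tested genes were called lower.

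Genes of NF-kB and MyD88 signalling were called higher in 12 of 24 and lower in 1 with plain IDs, with a median of 0.30. The shares of all tested genes there were 19.8% higher and 24% lower. Nfkb1, which encodes a subunit of NF-kB, averaged 108.2 and 154.3 CPM (0.51, edgeR adjusted p = 0.00518). The exception was Tab2, an adaptor in the kinase step upstream of NF-kB, at 170.3 and 133.7 CPM (-0.35 ± 0.08, adjusted p = 0.00203), which was not called with library totals alone, where 20 of 24 were higher and 0 lower. With S IDs 0 of 24 were called and the median was 0.07.

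Genes upstream and downstream of interferon gamma were called higher in 7 of 13 and lower in 0 with plain IDs, with a median of 0.40. The share of all tested genes called higher was 19.8%. Cxcl9, a chemokine induced by interferon gamma, averaged 16.0 and 31.6 CPM (0.98 ± 0.18, edgeR adjusted p = 0.000437), Socs1, an inhibitor of the same pathway, 6.05 and 11.3 CPM (0.89 ± 0.15, adjusted p = 0.000241). Stat4, which carries the IL-12 signal, averaged 10.5 and 16.4 CPM (0.64 ± 0.12, adjusted p = 0.000646). Ifng itself was too low to judge beside them. With S IDs 0 of 13 were called and the median was 0.06.

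Of 24 other inflammatory cytokine and mediator genes, 14 passed the filter and 8 of these were called higher and 0 lower with plain IDs, with a median of 0.63. Cxcl16, a chemokine of macrophages and dendritic cells, averaged 18.1 and 28.3 CPM (0.65 ± 0.10, edgeR adjusted p = 0.000124), and Ebi3, a chain of IL-27, 4.99 and 8.16 CPM (0.71, adjusted p = 0.00177). The 10 that did not pass were Il17a, with 0 counts over all libraries, Il22 with 5, Csf2 with 22, Cxcl2 with 43, Il23a and Csf3 with 54 each, Il17f with 68, Ptgs2 with 81, Ccl7 with 102 and Cxcl1 with 206. With S IDs 0 of 14 were called and the median was -0.03. Over both ID forms no gene of these 5 lists was called, as for all tested genes. The counts with plain IDs stand against the 19.8% of all genes called higher there, 3297 genes. With library totals alone 6436 genes were called higher, and the counts of higher genes in the 5 lists became 15 of 17, 10 of 13, 20 of 24, 9 of 13 and 10 of 14 in the order given.

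**Figure D5:**
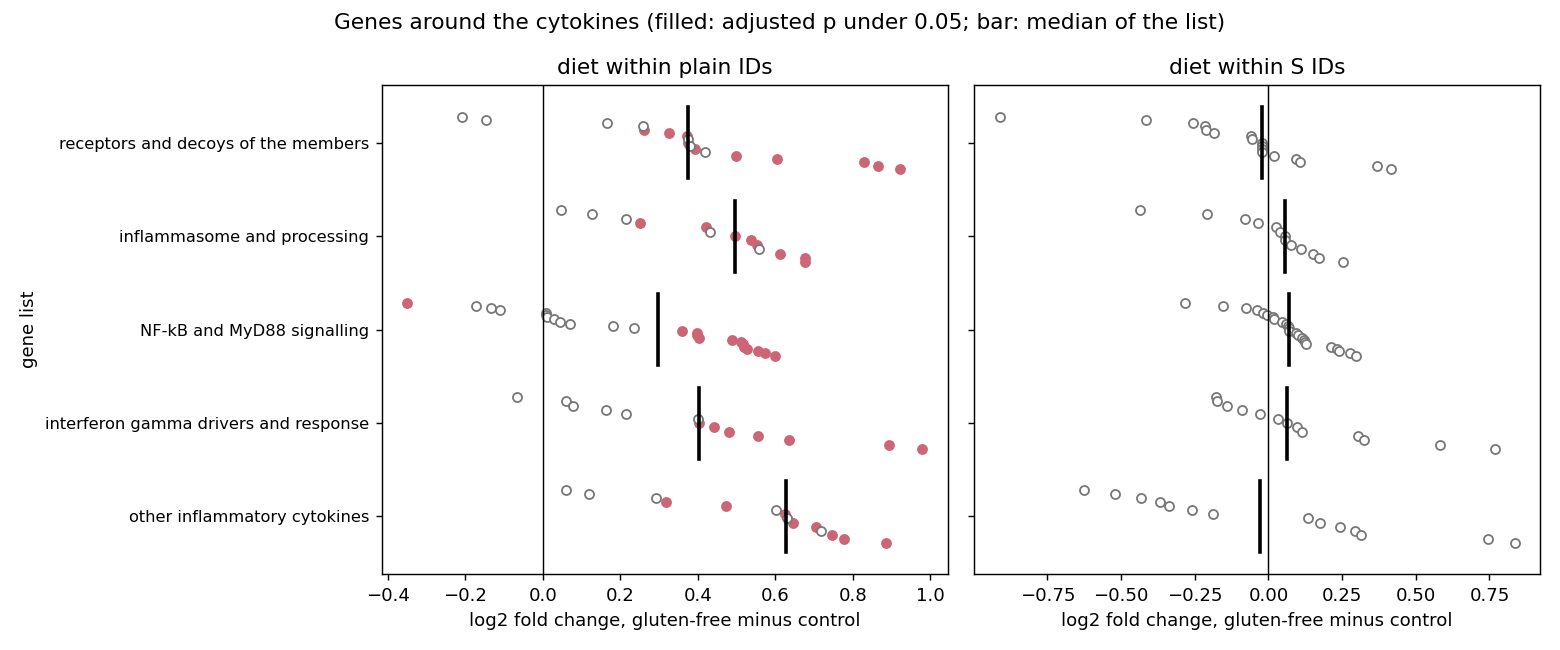
Log2 fold changes of the tested genes of the 5 pathway lists between the diets, within the plain and the S IDs, with list medians as bars. With plain IDs the medians lie between 0.30 and 0.63, and with S IDs between -0.03 and 0.07.

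Cell type markers also moved with diet in the plain IDs, where 19.8% of all tested genes were called higher and 24% lower. The neutrophil sum was 717.4 to 2207 CPM in control and 2851 to 7407 CPM in gluten-free libraries, with 10 of 10 markers called higher. The erythroid sum was 54170 to 129200 and 37630 to 73330 CPM, with 10 of 10 called lower, or 9 of 10 with upper quartile scaling or library totals alone. The platelet sum was 497.7 to 1311 and 1463 to 2051 CPM, with 5 of 5 called higher. Of the monocyte and macrophage markers 3 of 10 were called higher, and of the NK cell markers 1 of 6 was called lower and 0 higher. The counts of 3 of 10 and 1 of 6 were near the shares of all tested genes. Those of the NK cell markers became 0 and 0 with upper quartile scaling and 0 lower and 1 higher with library totals alone. With S IDs 0 markers of these lists were called, and the median log2 fold changes were -0.45 (neutrophil), -0.04 (erythroid) and -0.49 (platelet). The interaction was called lower in 10 of 10 neutrophil, 4 of 5 platelet and 4 of 10 monocyte and macrophage markers. It was called higher in 7 of 10 erythroid markers and in 0 of 6 NK cell markers in either direction. Of all tested genes 10.8% had a lower and 16.8% a higher called interaction. None of these cell type markers was at 0 in any group, and their part in the member and pathway values was not tested. Markers of pancreas acinar tissue reached 810.9 CPM in control 4 and 8789 CPM in gluten-free S1. The call of Tnf with plain IDs held without control 4. Without gluten-free S1, 0 members were called between the diets with S IDs. The interactions of Il1a (-1.07, edgeR adjusted p = 0.0345) and Il18 (-0.47, adjusted p = 0.0178) were then called, as under other settings given above. The part of the acinar markers in these changes was not tested.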

How the data were processed

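The authors deposited unnormalized whole-number counts of reads per gene for 20 whole spleen libraries. Per the submitters' processing notes, CASAVA, HISAT2 2.0.5 and featureCounts 1.5.0 were used with GRCm38 (mm10). Strand setting, annotation release and the handling of multi-mapped reads are not given in the sources used here, so overlapping and near-identical genes are less certain. In 47 pairs of libraries of the same group, the chi-square divided by its degrees of freedom was 6.10 to 106.1, so no library was taken as a duplicate.

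The two-sided quasi-likelihood test of edgeR 4.0.16 (R 4.3.3) was used with TMM scaling and the default expression filter with diet as the group, which kept 16628 of 54532 genes. Benjamini-Hochberg adjustment covered all of these. The fit over both ID forms held the ID form as a term, and each other fit held only the groups it compares, apart from the interaction fit, which held all 4 groups. Standard errors were obtained as the size of the log2 fold change divided by the root of the F statistic. Correlations used log2 CPM with a prior count of 2, and permutation tests used scipy 1.17.1. The fits were tested on simulated data.

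All 10 members are named. A member was too low to judge if it did not pass the filter or had a median under 10 counts. Up to 4 genes of each fixed list were open to naming, those with the smallest p between the diets with plain IDs, and the 3 protein-coding genes most correlated with each member. The members and lists were chosen with earlier results of these data known. Alternatives were RLE and upper quartile scaling, library totals, no filter or a mean of 1 CPM, DESeq2 1.42.0, limma-voom (limma 3.58.1) with and without quality weights, a shared fit, no ID form term, a replicate block and leaving out each library in turn.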

Additional observations from a re-analysis of the deposited data

Results flagged for a closer look

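Of 66 groups of 4 to 10 libraries tested for a value far from the rest, 5 had one, where chance gives about 1 in 20. Ifng stood at 1.25 CPM in gluten-free S3, against 0.113 to 0.385 CPM in the other gluten-free S libraries. The dendritic cell marker sum stood at 164.6 CPM in control 8, against 115.7 to 138.6 in the other control plain libraries. The monocyte and macrophage marker sum stood at 572.6 CPM in gluten-free 7, against 687.1 to 696 in the other gluten-free plain libraries. The pancreas acinar marker sum stood at 810.9 CPM in control 4, against 6.15 to 18.3 in the other control plain libraries, and at 8789 CPM in gluten-free S1, against 6.54 to 26.3 in the other gluten-free S libraries.

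The diet difference of 9 named pathway genes differed between the ID forms by the interaction term (edgeR, adjusted over all tested genes), and each was lower with S than with plain IDs. These genes were named for the smallest p between the diets with plain IDs, a choice that itself favours a lower interaction, and 27.6% of all tested genes had a called interaction, 10.8% as lower, so nothing is read from their number or direction. The interaction was -1.27 for Ccl9, a chemokine, and -1.14 for its receptor Ccr1. It was -1.07 for Ebi3, -0.76 for Zfp36, -0.73 for Gbp2, a guanylate-binding protein induced by interferon gamma, and -0.67 for Stat4. For the IL-6 receptor chains it was -0.68 (Il6st) and -0.63 (Il6ra), and for Tnip1, which restrains NF-kB, -0.44.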

How the results depend on the processing

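Of the member fold changes under alternatives other than leaving out 1 library, 368 kept their direction and side of the threshold, 26 newly passed it, 6 no longer passed it and 22 changed sign. With 1 library left out these numbers were 507, 16, 13 and 24. The causes were not tested.

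Members called over both ID forms, 0 in the report, were 1 with DESeq2, 2 with limma-voom quality weights and 1 without control S6 and gluten-free S8, a setting chosen after seeing the data (Tnf 0.89, adjusted p = 0.00111). With plain IDs, 1 in the report, they were 3 with upper quartile scaling, 4 with library totals, 2 with DESeq2, 2 with limma-voom and 3 with quality weights. For the interaction, 0 in the report, they were 2, 2, 2, 1 and 2 in the same order, and 1 with the filter at a mean of 1 CPM and 1 without both libraries. For S against plain IDs, the 1 control call became 0 with limma-voom and 3 with quality weights, and the 2 gluten-free calls became 1 with RLE, without a filter, in 1 fit of all 4 groups and without both libraries. Leaving out each library gave 0 to 1 over both forms, 1 to 3 with plain IDs, 0 to 0 with S IDs, 0 to 2 for the interaction, 0 to 1 for control and 0 to 3 for gluten-free libraries.

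Signs that changed over both forms were those of Il18 with library totals (0.0870) and quality weights (0.0510). With plain IDs Il1b was 0.0566 with upper quartile scaling and 0.22 with library totals. With S IDs and quality weights Ccl3 was 0.19 and Nlrp3 0.0681. For the interaction Ccl4 was -0.0922 with library totals and Tnf 0.0090 without control S6 and gluten-free S8. Between ID forms without both libraries, Tnf was -0.26 and Il1b 0.0461 in control and Ccl4 0.0564 in gluten-free libraries, where Il1a was -0.0510 with library totals and Ccl4 0.12 with quality weights. Leaving out 1 library gave ranges across 0 over both forms for Il1a (-0.0378 to 0.18) and Ccl3 (-0.0524 to 0.18). It did so with plain IDs for Il1b (-0.0962 to 0.0427) and Ccl4 (-0.0207 to 0.62), with S IDs for Tnf (-0.0342 to 0.80), for the interaction of Ccl4 (-0.11 to 0.53), in control libraries for Tnf (-0.26 to 0.56) and Il1b (-0.45 to 0.0498), and in gluten-free libraries for Ccl4 (-0.40 to 0.25).

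Same-numbered libraries did not deviate together throughout (correlation of deviations -0.217 for ID 7, -0.247 for ID 8, 0.165 for S1 and 0.445 for S6). These values are too few to decide whether the numbers mark pairs. No label says that they do, and the numbers were not taken as pairs. A replicate block kept only the libraries whose ID occurs in both diets, with plain IDs control 7 and 8 and gluten-free 7 and 8. There 0 members were called with plain IDs (Tnf 0.81, edgeR adjusted p = 0.660) and 0 genes in all. With so few libraries the block could hardly call any gene, so nothing is concluded from these counts. Under that block Il1b was 0.0444, Ccl3 -0.21 and Ccl4 -0.0113 over both forms, Ccl3 -0.0718 and Ccl4 -0.55 with plain IDs, Il1b 0.15 and Nlrp3 0.29 with S IDs, and the interaction was 0.21 for Il1b and 0.28 for Nlrp3.

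All genes called over both forms numbered 0 in the report, 1614 with DESeq2, 1 with limma-voom, 9527 with quality weights, 1 without a filter, 1 without the ID form term, 3888 without control S6, 3042 without gluten-free S8 and 5446 without both. With S IDs they were 0, against 4 with DESeq2, 667 with quality weights, 67 with the block and 3 without both. The interaction's 4585 became 7959 with quality weights, 2965 without both and 0 with the block, which kept only the shared IDs. In control libraries 398 became 879 with DESeq2, 261 with limma-voom, 4896 with quality weights, 970 without both, and 0 without S1 or without S2 (0 to 981 over single libraries). Against TMM, upper quartile scaling moved the median log2 fold change of all genes by 0.10 and library totals by 0.27 with plain IDs. The share of higher genes among those called there was 45.3% with TMM, 59.5% and 75.9%. For the interaction it was 60.9%, 45.5% and 33.7%, and between ID forms in gluten-free libraries 61.1%, 44.9% and 23.2%, in the same order.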
